A study of Mus musculus with 34 samples.

Results

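The regions described here are the constitutive hubs of the macrophage AP-1 network, genomic loci at which every AP-1 monomer profiled gave a peak. They were chosen from chromatin immunoprecipitation sequencing (ChIP-seq) peaks of C57BL/6 thioglycollate elicited macrophages (TGEMs). Peaks of ATF3, Jun and JunD in untreated cells were merged wherever they overlapped by at least 1 bp, which gave 29552 resting loci. Of these, 10558 held all 3 monomers. Those that also overlapped a peak of ATF3, Jun, JunD, Fos, FosL2 (Fra2) and JunB after activation were kept, which left 3668 hubs, 34.7% of the loci with all 3 monomers and 12.4% of all resting loci. The 9 lists of the rule chose the members by measured binding, so the presence and strength of those 9 peaks at hubs is description. What the rule did not use was position, DNA sequence, the lineage factors, the PPARγ knockout, the second strain and resting Fos, FosL2 and JunB.

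AP-1 is a family of basic leucine zipper proteins that bind DNA only as dimers. Jun proteins pair with each other or with Fos and ATF proteins, while Fos proteins need a partner of another kind. The dimers read the TRE, TGAGTCA, and to different degrees the CRE, TGACGTCA. In macrophages AP-1 shares enhancers with PU.1 and CEBPα, the factors that open macrophage-specific chromatin, and with PPARγ, a lipid-sensing nuclear receptor. Fos, FosL2 and JunB are induced as immediate early or early response genes. Fos and FosL2 are typically low in resting cells, while the study reported high JunB RNA in resting TGEMs.

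TGEMs are macrophages recruited to the peritoneum by thioglycollate. The study's methods give male mice of 8 weeks for C57BL/6 and BALB/cJ. Sex and age of the knockout mice are not stated separately in the sources used here. Per the methods, cells were collected 3 days after the injection. They were treated with PBS (Veh) or with 100 ng/mL Kdo2 lipid A (KLA), a TLR4 agonist, for 1 hour. All cells of every group were thus thioglycollate elicited. The groups used were wild-type C57BL/6 (labelled C57Bl/6EiJ) in Veh and KLA, BALB/cJ in Veh and KLA, and a C57BL/6 PPARγ knockout (PPARgKO) in Veh only. How the knockout was made is not given in the sources used here, and no PPARγ profile of those cells was analysed, so that label could not be checked. PPARγ itself was profiled in wild-type Veh cells alone. Each of the 30 conditions had 1 list of reproducible peaks, so no comparison has a replicate check and no test was run. Intervals below are 95% Wilson intervals over loci and cover counting error only.

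Peaks of PU.1 in Veh lay within 5 kb of 10 of 10 macrophage marker genes and 0 of 5 fibroblast genes. They also lay near 1 of 5 T cell genes (Cd4) and 3 of 5 B cell genes (Cd79a, Ms4a1 and Cd22). The lists differed widely in length. The 9 lists of the rule held 10619 to 36745 peaks whose read counts summed to 466030 to 10395306, and 19 other lists held 463 to 41573 peaks with sums of 9196 to 13809143. The BALB/cJ Fos Veh list was empty and the BALB/cJ JunB Veh list held 9 peaks, so both were left out of strain comparisons. Counts were not scaled to library size. Strength is therefore given as a rank, the percentile of a peak's count within its own list, where 100 is the strongest peak.

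The sequences of hubs that carry the results below are shown first. They are the central 120 bp of the 6 hubs with the highest mean rank over the 9 lists, read from GRCm38 on the + strand, with each TRE in capitals on either strand (TGAGTCA or TGACTCA).

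Tax1bp1 (chr6:52825623-52825742): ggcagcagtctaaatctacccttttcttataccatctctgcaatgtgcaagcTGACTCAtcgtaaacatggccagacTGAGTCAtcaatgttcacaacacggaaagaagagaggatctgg
Sfn (chr4:133614549-133614668): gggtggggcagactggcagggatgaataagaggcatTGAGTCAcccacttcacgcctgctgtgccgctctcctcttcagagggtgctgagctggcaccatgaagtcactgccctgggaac
Prss56 (chr1:87180959-87181078): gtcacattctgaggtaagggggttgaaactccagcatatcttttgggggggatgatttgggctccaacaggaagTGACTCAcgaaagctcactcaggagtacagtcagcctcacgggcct
Noct (chr3:51195444-51195563): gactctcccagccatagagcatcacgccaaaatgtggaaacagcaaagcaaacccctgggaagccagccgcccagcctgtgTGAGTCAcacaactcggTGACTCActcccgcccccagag
Reep3 (chr10:66928246-66928365): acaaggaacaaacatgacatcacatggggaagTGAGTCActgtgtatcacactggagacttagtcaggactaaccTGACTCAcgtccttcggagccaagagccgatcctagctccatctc
2310022A10Rik (chr7:27574248-27574367): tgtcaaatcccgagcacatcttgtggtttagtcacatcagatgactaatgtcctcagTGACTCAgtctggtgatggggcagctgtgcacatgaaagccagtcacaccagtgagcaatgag

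The centres of further hubs are shown because each was the strongest beside a gene of a functional list used below, in the same build and strand and with the same capitals.

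Atf3 (chr1:191230706-191230825): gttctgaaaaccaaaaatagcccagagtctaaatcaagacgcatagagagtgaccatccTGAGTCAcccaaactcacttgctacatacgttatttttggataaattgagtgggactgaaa
Runx1 (chr16:92620848-92620967): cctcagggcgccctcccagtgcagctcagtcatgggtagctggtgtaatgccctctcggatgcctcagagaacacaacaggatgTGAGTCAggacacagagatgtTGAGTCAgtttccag
Trem2 (chr17:48355966-48356085): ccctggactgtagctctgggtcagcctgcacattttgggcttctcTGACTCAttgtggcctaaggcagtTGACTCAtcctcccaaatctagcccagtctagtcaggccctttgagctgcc
Abca1 (chr4:53120485-53120604): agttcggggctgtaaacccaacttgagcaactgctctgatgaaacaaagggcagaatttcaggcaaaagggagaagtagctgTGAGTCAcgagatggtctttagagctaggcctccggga
Il1rn (chr2:24341551-24341670): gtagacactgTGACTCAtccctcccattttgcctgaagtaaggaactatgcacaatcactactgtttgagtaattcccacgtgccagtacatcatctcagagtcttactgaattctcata
Dusp1 (chr17:26535466-26535585): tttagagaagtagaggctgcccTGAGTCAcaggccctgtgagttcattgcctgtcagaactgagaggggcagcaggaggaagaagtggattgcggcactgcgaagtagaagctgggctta
Srxn1 (chr2:152105375-152105494): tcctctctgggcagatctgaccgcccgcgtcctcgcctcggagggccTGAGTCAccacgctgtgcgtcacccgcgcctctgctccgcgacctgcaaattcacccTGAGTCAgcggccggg
Plau (chr14:20834265-20834384): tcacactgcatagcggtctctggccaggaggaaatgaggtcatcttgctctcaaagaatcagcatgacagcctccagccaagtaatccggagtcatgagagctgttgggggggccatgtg
Lgals3 (chr14:47371841-47371960): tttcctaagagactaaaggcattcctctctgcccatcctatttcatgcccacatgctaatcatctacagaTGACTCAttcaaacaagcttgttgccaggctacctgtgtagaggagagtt

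All of these 15 windows but that of Plau held a TRE, and 6 of them, at Tax1bp1, Noct, Reep3, Runx1, Trem2 and Srxn1, showed 2. The whole CRE appeared in 0 of the 15. These windows were chosen for strength and do not stand for all hubs. In the central 200 bp a TRE lay at 55.9% of all hubs and 26.0% of resting loci, and a CRE at 0.845% and 1.84%.

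Among loci with all 3 resting monomers, being a hub went with resting strength. The hub share was 9.57% in the weakest decile of these loci by mean resting rank, 26.2% in the fifth decile and 79.6% in the strongest. Numbers of KLA lists showed the same ordering. The 314 loci with no KLA peak had a median resting rank of 32.9, the 1138 with 3 had 54.9, the 2513 with 5 had 71.5 and the 3668 with 6 had 83. Since presence in a thresholded list depends on strength, this ordering partly follows from how the lists were made.

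**Figure D1:**
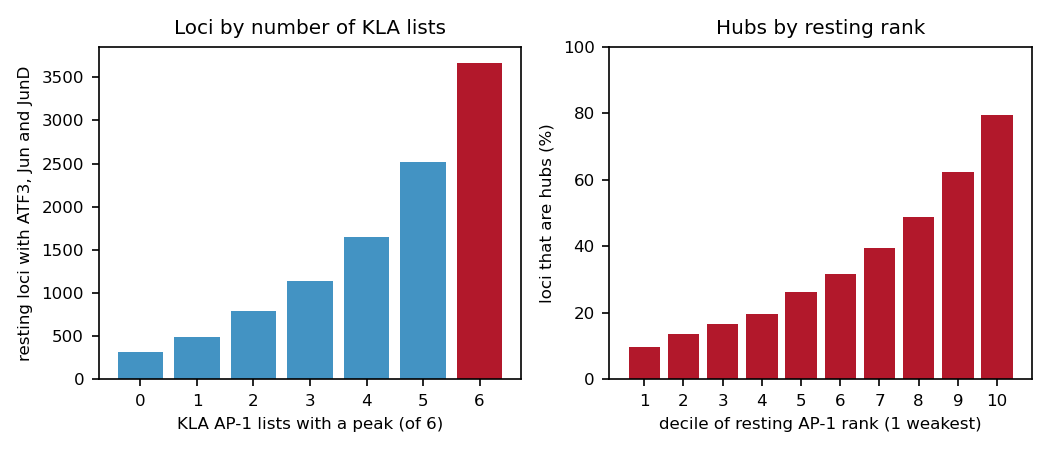
Resting loci with ATF3, Jun and JunD, by the number of the 6 KLA lists with a peak (x axis) and the number of loci (y axis) in the left panel, and the percent of them that are hubs by decile of mean resting rank in the right panel. The loci rose from 314 with none to 3668 with all 6, the hubs (red), and the hub share from 9.57% to 79.6%.

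The edge of the hub set was drawn mostly by 1 protein. Of the 2513 loci with 5 KLA monomers, 1720 (68.4%) lacked only FosL2, 578 (23.0%) lacked only JunB and 167 (6.65%) lacked only Jun. Only Fos was missing at 29, only ATF3 at 10 and only JunD at 9. FosL2 after KLA had the shortest of the 9 lists, with 10619 peaks. Just inside the rule, the weakest hub peak of FosL2 had a count of 23, at the 0.424 percentile of its list. Just outside it, the loci missing only FosL2 had a median rank of 70.4 in the other 5 KLA lists, against 85.1 for hubs in the same lists.

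Hub peaks ranked high in every list of the rule. In Veh, median ranks at hubs were 85.1 for ATF3, 81.6 for Jun and 85.5 for JunD. After KLA the median was highest for ATF3, 91.6, and JunD, 90.8, and lowest for FosL2, 76.5. Between them were JunB at 78.8, Jun at 82.6 and Fos at 87.9. By the rule every hub had all of these peaks, whereas of all resting loci 73.6% had an ATF3 peak after KLA and 67.2% a JunD peak. The shares with FosL2, 26.8%, and JunB, 33.4%, were the lowest, and those with Jun, 44.1%, and Fos, 52.8%, lay between. Other loci with all 3 resting monomers had lower medians in each list, from 41.6 for FosL2 in KLA to 69.4 for ATF3 in KLA. The mean rank over the 9 lists ran from 26.6 to 99.9 among hubs, with a median of 81.8 and quartiles of 70.5 and 90.6. At 2264 hubs (61.7%) every one of the 9 peaks was above the middle of its list, and at 337 (9.19%) every one was in the top decile.

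**Figure D2:**
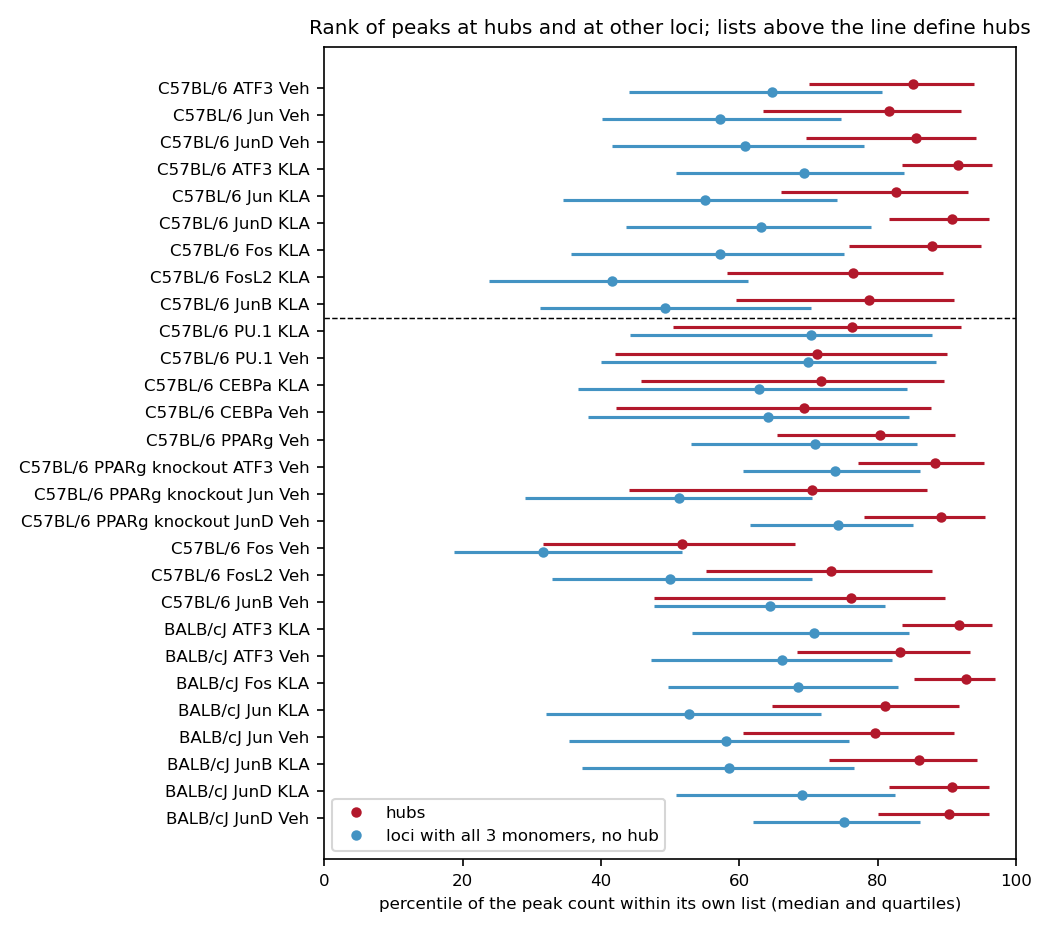
Rank of peaks at hubs and at other loci with all 3 resting monomers in each list (x axis, percentile of the count within its list; points are medians and lines quartiles), with the lists of the rule above the dashed line. For those, hub medians lay between 76.5 (FosL2 in KLA) and 91.6 (ATF3 in KLA).

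Ranks in the Veh and KLA lists can be set side by side only as description, since the lists chose the hubs and differ in length (23160 and 36745 peaks for ATF3, 19653 and 31640 for JunD). ATF3 ranked higher in its KLA list at 73.4% of hubs, with a median difference of 4.51 percentile points, and at 61.6% of other loci with ATF3 in both lists, with 6.03. JunD ranked higher at 64.4% of hubs, with 3.27, and at 52.6% of other loci, with 1.32. Jun had about as many hubs above as below, 49.8% higher, while at other loci with Jun in both lists 40.0% were higher and the median fell by 5.53 points.

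Hubs were about as wide as other resting loci. Their merged resting peaks spanned 208 to 746 bp with a median of 272 bp. The median was 283 bp at the other loci with all 3 monomers and 249 bp at loci with 1 or 2. At 2872 hubs (78.3%) the centres of all 9 peaks lay within 100 bp of each other, a value taken at hubs alone. Peaks were called at a set size of 200 bp and had to overlap, which limits both measures.

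The strongest hub by mean rank, 99.9, was chr6:52825478-52825887 in an intron of Jazf1, with Tax1bp1, which encodes a ubiquitin-binding adaptor, as the nearest transcription start. Its counts in Veh were 336 for ATF3, 118 for Jun and 262 for JunD. In KLA they were 461 for ATF3, 126 for Jun, 1049 for JunD, 284 for Fos, 145 for FosL2 and 143 for JunB. All 9 ranked above the 99 percentile of their lists. PU.1 gave counts of 272 in Veh and 94 in KLA and PPARγ gave 62, while CEBPα had no Veh peak and a count of 56 in KLA. The knockout had all 3 monomers there, with counts of 212 for ATF3, 55 for Jun and 227 for JunD.

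Next was chr4:133614473-133614743 in an intron of Zdhhc18, 12.4 kb upstream of Sfn, which encodes a 14-3-3 protein. Its Veh counts were 352 for ATF3, 107 for Jun and 242 for JunD. Here all lineage factors had a peak, with 114 and 41 for PU.1 in Veh and KLA, 68 and 64 for CEBPα, and 142 for PPARγ. The third, chr1:87180882-87181155, lay 2.29 kb upstream of the serine protease gene Prss56. It held ATF3 and Jun in the knockout, with counts of 209 and 55, but no JunD peak, although JunD had 197 in the wild type.

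The other 9 of the 12 strongest had as nearest start Noct (nocturnin), Reep3, 2310022A10Rik, Ergic1, Socs1, Irf2bp2, Dlx2, Slfn2 and Sspn. Socs1 encodes a suppressor of cytokine signalling, and its hub at chr16:10754599-10754853, 30.8 kb away, had a PPARγ count of 304, a PU.1 peak only in KLA (37) and no CEBPα. The Ergic1 hub at chr17:26605594-26605867 had peaks in all 12 C57BL/6 AP-1 lists, with resting counts of 39 for Fos, 47 for FosL2 and 26 for JunB, and had large counts of PU.1 (851 in Veh) and PPARγ (482). At Reep3, chr10:66928196-66928414, PU.1 was present (442 in Veh, 160 in KLA) and CEBPα was not.

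At these 12, PPARγ was present at 12, PU.1 at 11 in Veh and 12 in KLA, and CEBPα at 8 in Veh and 9 in KLA. Over all resting loci the shares were 58.4% for PPARγ, 56.8% and 59.8% for PU.1 in Veh and KLA, and 32.3% and 33.5% for CEBPα. In the 337 hubs in the top decile of all 9 lists they were 98.2% for PPARγ, 79.2% and 92.0% for PU.1, and 67.4% and 75.1% for CEBPα, a set that includes these 12. All 12 had peaks in each of the 8 BALB/cJ lists (14.5% of resting loci, 90.5% of the 337), and the knockout had ATF3 and Jun at 12 and JunD at 11 (70.1%, 13.8% and 43.3% of resting loci, 99.7%, 87.2% and 95.8% of the 337). A TRE lay in the central 200 bp of all 12 (26.0% of resting loci, 76.3% of the 337), and 7 had 2 or more (2.76% and 23.4%). None was within 1 kb of a transcription start, 4 were intronic and 8 were between genes.

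Hubs were mostly distal. Only 247 lay within 1 kb of the start of a protein-coding transcript, 6.73% (5.97 to 7.59) against 18% of all resting loci, 14.9% of the other loci with all 3 monomers and 21.3% of loci with 1 or 2. Introns held 1613 hubs (44.0%, background 41.2%) and 1740 lay between genes (47.4%, background 38.4%), here meaning outside protein-coding transcripts of the GENCODE basic set. Coding exons held 24 hubs (0.654%, background 0.975%) and UTR exons 44 (1.2%, background 1.42%). The median distance to the nearest start was 20.8 kb, with quartiles of 7.02 and 50.8 kb, against 16.3 kb at the other loci with all 3 monomers.

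Of the promoter hubs, the strongest was at Stk40 (mean rank 98.3), followed by Trib1 (97.8), Prss46 and Kbtbd7 (97.6 each), Apobr (97.1) and Cdt1 (96.9). Promoter hubs carried PPARγ at 87.9% and PU.1 in Veh at 71.3%, close to the 83.5% and 69.8% of hubs at least 3 kb from a start. Their share with CEBPα in Veh was 41.7%, below the 51.7% of distal hubs. The other loci with all 3 monomers also had less CEBPα in Veh at promoters, 29.9% against 46.8% at distal loci. Their promoter loci carried PPARγ at 80.4% and PU.1 in Veh at 62.5%.

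Some hubs stood in groups. When hubs with centres no more than 12.5 kb apart were joined, 2442 stood alone and 1226 fell into 529 groups, 129 of which had 3 or more hubs. The largest group held 8 hubs over 32.5 kb at chr8:126849607-126882132, downstream of Tomm20, which encodes a mitochondrial import receptor, and had a median mean rank of 89.8. Groups of 6 lay at Dusp1 and Ankdd1a. A group of 5 spanned chr1:191224337-191254752 upstream of Atf3, itself a gene of the family.

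As nearest start, 2292 protein-coding genes had at least 1 hub, 1533 had exactly 1 and 73 had 5 or more. Tomm20 and the pseudokinase gene Trib1 had most, 13 each, of 37 and 53 resting loci. Trib1 hubs reached 183 kb from the start, and 13 of 13 had PU.1 in KLA against 9 in Veh. PPARγ was at 12 of them and all 8 BALB/cJ lists had a peak at 9. Over all hubs the shares were 83.4% for PU.1 in KLA, 69.8% in Veh, 83.9% for PPARγ and 57.8% for all 8 lists.

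Dusp1, which encodes a phosphatase that switches off MAP kinases, had 10 hubs of only 14 resting loci. They ran from a mean rank of 51.5 to one of 99.3, 9 of 10 carried CEBPα in KLA against 4 in Veh, and 3 of 10 had peaks in all 8 BALB/cJ lists. Among all hubs CEBPα was at 61.1% in KLA and 50.9% in Veh, and all 8 BALB/cJ lists had a peak at 57.8%. The annotated Dusp1 gene is long in GENCODE M21 (chr17:26505590-26562128), so intronic hubs inside it are intronic to that model. The intronic hub at chr17:26571439-26571709, also nearest to the Dusp1 start, lay past that end and within Ergic1. The strongest hub inside the Dusp1 model, chr17:26535402-26535649, had a mean rank of 99.4 and ATF3 counts of 252 in Veh and 380 in KLA. That hub had PU.1 and CEBPα in KLA and not in Veh.

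Lpp had 10 hubs, Gm5426, Runx1 and Sgms1 had 9, Klf6, St3gal1 and Tprg had 8, and Bach2 and Fam129b had 7, as did other genes not named. Runx1, a haematopoietic transcription factor, had PU.1 at 9 of 9 in KLA and ATF3 in the knockout at 9 of 9. At Bach2, whose product is a leucine zipper repressor, 4 of 7 carried PPARγ. The 8 Klf6 hubs were the poorest in CEBPα among these genes, with 2 in Veh and 3 in KLA. Shares over all hubs were 83.4% for PU.1 in KLA, 95.6% for knockout ATF3 and 83.9% for PPARγ. For CEBPα they were 50.9% in Veh and 61.1% in KLA.

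Genes of 9 functional lists were scored for a hub within 20 kb of the gene body. Of all 21951 protein-coding genes, 13.1% had one, and of the 11998 with any resting locus in that window, 24.0% had one. The lists hold genes expressed in macrophages and were assembled with earlier results of these data known, so their shares support nothing about selectivity.

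Of the AP-1 genes 4 of 13 (30.8%) had a hub, Fos, Atf3, Batf and Batf2, while Jun, Junb, Jund, Fosb, Fosl1, Fosl2, Atf4, Batf3 and Jdp2 had none. Atf3 had 4. The strongest, chr1:191230622-191230909, lay 12.7 kb upstream with a mean rank of 98.1 and counts of 272 for ATF3, 101 for Jun and 182 for JunD in Veh. After KLA its counts were 370 for ATF3, 86 for Jun and 843 for JunD. It had PU.1 in KLA and not in Veh, and the knockout had ATF3 and JunD there but no Jun. Fos had 1 hub 5.04 kb upstream, chr12:85468722-85468987, with all 5 lineage profiles and all 3 knockout monomers and with 7 of 8 BALB/cJ lists. Its mean rank was 80.8.

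Macrophage transcription factors had a hub at 10 of 18 genes (55.6%). Runx1 had the strongest, chr16:92620791-92621024 in an intron 205 kb from the gene start, with a mean rank of 98.9. It had a peak in all 12 C57BL/6 AP-1 lists, all 3 knockout lists and all 8 BALB/cJ lists, and PU.1 in KLA only. Spi1, which encodes PU.1, had 3 hubs. One, of mean rank 84.1, was at the start of Slc39a13, 11.7 kb upstream of the outer end of the annotated Spi1 gene. Another, of mean rank 62.0, was 0.598 kb from a Spi1 transcript start, which lies inside that gene model. Myc (97.8), Klf2 (95.9), Mitf (95.7) and Irf8 (94.6) followed by mean rank, and Cebpa and Cebpb had none.

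Surface receptor genes most often had a hub, 16 of 18 (88.9%), all but the scavenger receptor genes Msr1 and Marco. Trem2, a lipid-sensing receptor gene, had a hub 9.62 kb downstream of its start at chr17:48355910-48356141, of mean rank 97.8. Its Veh counts were 251 for ATF3, 115 for Jun and 180 for JunD, and it had PPARγ and neither PU.1 nor CEBPα in any list. Cd14, the LPS co-receptor gene, had a hub at its promoter with a mean rank of 94.3 and all 5 lineage profiles. Csf1r, the receptor gene for the macrophage growth factor, had an intronic hub of 81.4, again with all 5. Tlr4, the KLA receptor gene, had a hub of 79.2 in an intron 1.27 kb from its start, with no PPARγ peak.

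Lysosomal genes had hubs at 10 of 13 (76.9%), led by Lgals3 (99.0), Ctsk (98.2), Ctsd (97.8) and Ctsb (97.7). Ctsb, a cathepsin gene, had 5 hubs within 20 kb of mean rank 63.4 to 97.7. The Cd68 promoter hub had a mean rank of 96.3. Lipid handling genes had hubs at 9 of 14 (64.3%), including Abca1, the cholesterol exporter gene (intronic hub, 95.7), Abcg1 (93.6) and Npc1 (93.0). Fabp4, a fatty acid binding protein gene, had a promoter hub of 67.9.

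Inflammatory mediator genes had hubs at 10 of 20 (50.0%). Il1rn, which encodes the IL-1 receptor antagonist, had an intronic hub of 96.6 at chr2:24341477-24341744, and Il1b had one of 94.5 at 2.35 kb upstream, chr2:129373342-129373646. Both had all 5 lineage profiles, and in the knockout both had ATF3 and JunD and no Jun. Tnf, 17.8 kb from its hub, was of another kind. There the Veh ranks were 28.9 for ATF3, 47.0 for Jun and 33.0 for JunD, and the KLA ranks were 90.4, 95.4 and 94.7. Osm and Lif shared 1 hub. Il6, Il12b, Nos2, Ptgs2, Ccl4, Ccl5, Cxcl2, Cxcl3, Cxcl10 and Vegfa had none within 20 kb.

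Feedback inhibitor genes had hubs at 11 of 17 (64.7%). Beside Dusp1 and Trib1 these included Tnip1 with 5 hubs of 76.3 to 95.1 and Tnfaip3, the A20 gene, with 3, the strongest of them (91.7) at its promoter. Nfkbia, which encodes IκBα, had 1 hub of mean rank 64.1, 18.6 kb downstream of its start. Matrix genes had hubs at 6 of 15 (40.0%), led by Plau (95.8), the urokinase gene, at 2.34 kb upstream. Oxidative stress and iron genes had 5 of 14 (35.7%), led by Srxn1 (92.3). The Srxn1 promoter hub, chr2:152105319-152105549, had PPARγ and no PU.1 or CEBPα, like the hub of Trem2.

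The lineage factors were present at most hubs. PU.1 in Veh overlapped 2559 hubs, 69.8% (68.3 to 71.2), against 56.8% of all resting loci and 67.6% of the other loci with all 3 monomers. PPARγ overlapped 3078, 83.9% (82.7 to 85.1), against 58.4% and 72.7%. CEBPα in Veh overlapped 1867, 50.9% (49.3 to 52.5), against 32.3% and 44.5%. After KLA the share with PU.1 was 83.4% (background 59.8%) and that with CEBPα 61.1% (background 33.5%). All 3 factors were present in Veh at 1255 hubs, 34.2% (background 15.4%). The peaks of the lineage factors lay close to the AP-1 centre, at a median of 25.2 bp for PPARγ, 25.3 bp for CEBPα and 41.5 bp for PU.1 in Veh.

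Lineage factor shares rose with AP-1 strength, for PU.1 in Veh from 50.5% of hubs in the weakest decile to 77.4% in the strongest, so hubs were set against other loci with all 3 monomers in the same decile of mean resting rank. For PU.1 in Veh the hub share was then lower, 69.8% against 73.2%, with hubs lower in 9 of 10 deciles, and for CEBPα in Veh it was 50.9% against 57.1%, lower in all 10. For the KLA lists it was higher in all 10, with 83.4% against 75.3% for PU.1 and 61.1% against 53.4% for CEBPα. PPARγ was nearly level, 83.9% against 82.2%, higher in 5 deciles and lower in 5. The difference between Veh and KLA depended on the ranking used. A second stratification, in deciles of the mean rank of ATF3 and JunD after KLA (KLA rank), was added once the first values were known. It kept 5708 of the other loci, those with both of these peaks. PU.1 in Veh came to 69.8% at hubs and 70.0% at those loci and PU.1 in KLA to 83.4% and 79.8%. CEBPα in KLA was then 61.1% against 62.4%, CEBPα in Veh 50.9% against 56.0% and PPARγ 83.9% against 79.3%.

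**Figure D3:**
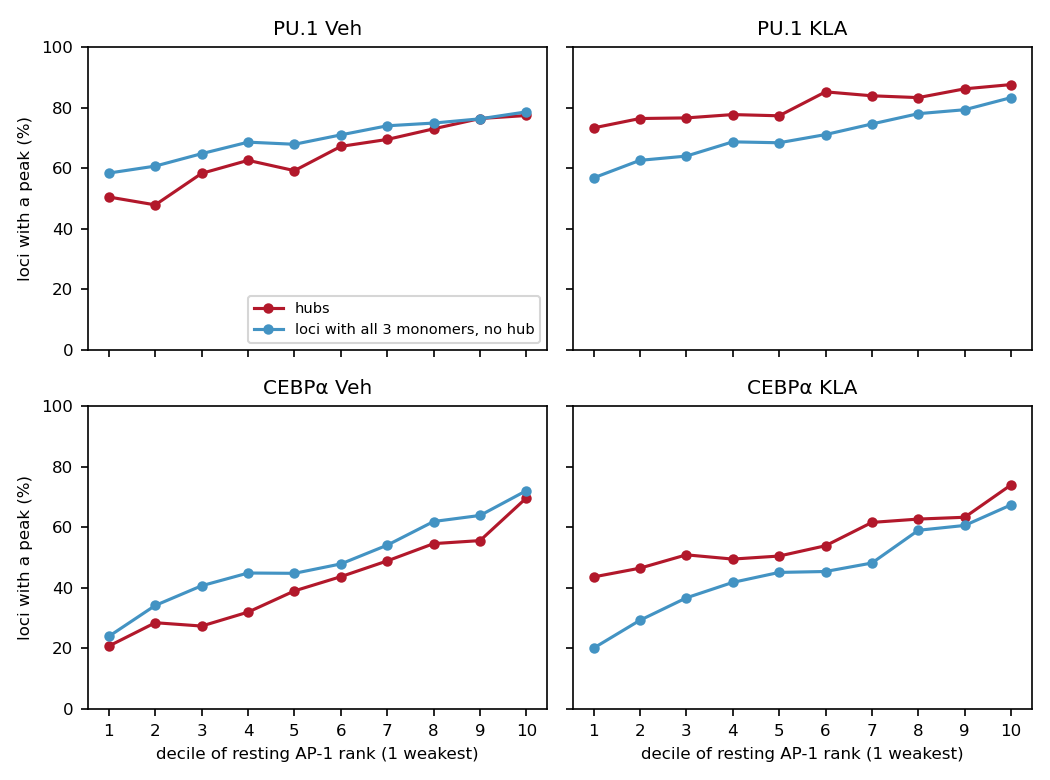
Share of loci with a lineage factor peak (y axis, percent) by decile of mean resting AP-1 rank (x axis), at hubs and at other loci with all 3 monomers. Hubs lay above the other loci in all 10 deciles for PU.1 and CEBPα in KLA and below them in 9 and 10 deciles in Veh.

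Changes of PU.1 between conditions were lopsided at hubs. PU.1 was in both lists at 2493 hubs (68.0%, background 50.3%), in KLA only at 567 (15.5%, background 9.49%), in Veh only at 66 (1.8%, background 6.53%) and in neither at 542 (14.8%, background 33.7%). At the other loci with all 3 monomers, KLA only (7.37%) and Veh only (6.73%) were nearly equal. CEBPα behaved likewise, with 556 hubs in KLA only (15.2%, background 8.89%) and 182 in Veh only (4.96%, background 7.61%), and it was in neither at 1245 (33.9%, background 58.9%). The rule required AP-1 peaks after KLA at every hub, so these differences are not independent of it. In deciles of KLA rank, the share with CEBPα in KLA was 61.1% at hubs and 62.4% at the other loci. For PU.1 in KLA it was 83.4% and 79.8%. The PU.1 peaks found only in KLA were weak, with a median rank of 31.1 against 82.6 where PU.1 was in both. The lowest count in the PU.1 list was 110 in Veh and 25 in KLA, so the lists differ in depth, whose part in this difference was not tested.

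Few hubs lacked lineage factors. In Veh, 439 had PPARγ without PU.1 or CEBPα (12%, background 13.3%). Only 75 had none of the 3 factors in any list, 2.04% (1.63 to 2.56) against 13.4% of resting loci. Their median mean rank was 70.2, and the strongest lay in an intron of C9 (91.9), a complement gene.

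Hubs were rich in the TRE. The central 200 bp held at least 1 at 2051 hubs, 55.9% (54.3 to 57.5), against 26.0% of all resting loci, 28.6% of the other loci with all 3 monomers, 19.2% of loci with 1 or 2, and 3.1% of 200 bp tiles of the genome. In the same decile of resting rank, other loci with all 3 monomers held it at 35.0%. In the same decile of KLA rank, those with ATF3 and JunD after KLA held it at 40.6%. Hubs were higher in all 10 deciles of each. Neither ranking matches loci for Fos, FosL2 and JunB after KLA, which the rule used, so this excess is not independent of the rule. With any middle base, TGANTCA, a form that includes the TRE and was added after the first values were seen, the share at hubs was 63.4%, against 30.4% of resting loci. The CRE went the other way, at 31 hubs, 0.845% against 1.84% of resting loci and 2.58% of the other loci with all 3 monomers.

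**Figure D4:**
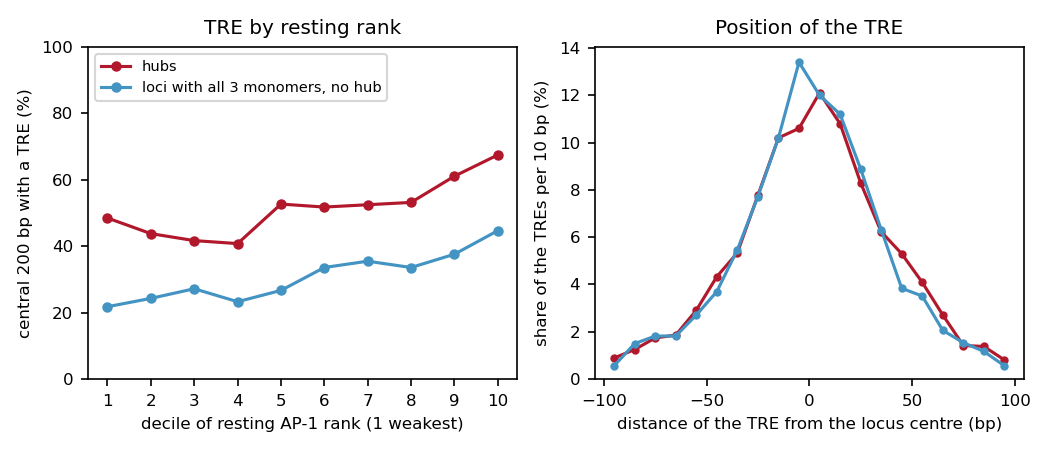
Share of loci with a TRE in the central 200 bp (y axis, percent) at hubs and at other loci with all 3 monomers, by decile of mean resting rank (left panel, x axis), and the percent of TREs per 10 bp by distance from the locus centre in bp (right panel). Hubs lay higher in each of the 10 deciles, and over all deciles the shares were 55.9% and 28.6%, while the 2 position curves nearly coincide.

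Of the 2471 TREs at hubs, 44.6% lay within 20 bp of the centre, and of those at the other loci with all 3 monomers 47.4%. The number of TREs went with strength. Hubs with 0, 1, 2 and 3 had median mean ranks of 78.0, 83.9, 89.9 and 90.7. There were 374 hubs with 2 or more, 10.2% against 2.76% of resting loci, and in the 337 hubs in the top decile of all 9 lists that share was 23.4% (19.2 to 28.2). The 18 hubs with a CRE and no TRE had a median rank of 51.2 in the FosL2 KLA list and 73.1 in the Fos KLA list, where hubs with a TRE and no CRE had 82.8 and 91.2. For ATF3 in KLA the medians were 91.0 and 92.5.

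Other motifs were searched on both strands as fixed letters. The PU.1 core AGGAAGT was in 21.9% of hubs (21.7% of resting loci), the CEBP motif TTGCNNAA in 19.1% (17.7%), the Runx motif TGTGGTT in 7.99% (7.36%) and the IRF motif GAANNGAAA in 9.24% (9.15%), all close to the background. The NFκB motif GGANTTTCC was in 1.8% of hubs (1.05%) and the E-box TCACGTG in 1.83% (3.5%). In genome tiles of 200 bp the shares were 4.79% for PU.1, 9.38% for CEBP, 4.67% for Runx, 7.31% for IRF, 0.611% for NFκB and 0.787% for the E-box. The DR1 motif of PPARγ matched 0.409% of hubs (0.271% of resting loci, 0.13% of tiles) and 0.487% of the hubs with a PPARγ peak. A match of letters is not a shown binding site.

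Within hubs, the TRE and the lineage factors ran in opposite directions. PU.1 in Veh was at 63.4% (61.3 to 65.4) of hubs with a TRE and 77.9% (75.8 to 79.8) of hubs without. CEBPα in Veh was at 43.2% (41.1 to 45.4) and 60.6% (58.2 to 63.0). PPARγ differed less, 82.5% (80.8 to 84.1) and 85.7% (83.9 to 87.3). FosL2 in Veh, by contrast, was at 56.5% of hubs with a TRE and 41.2% without. Where PU.1 was bound in both conditions, 29.3% (27.6 to 31.1) of hubs held the PU.1 core and 50.7% a TRE. Where it was bound in KLA only, 7.94% (5.98 to 10.5) held the core and 64.4% a TRE, and where it was absent these were 3.32% and 71.2%. The other loci with all 3 monomers showed the same pattern. There PU.1 in Veh was at 54.0% of loci with a TRE and 73.0% without, CEBPα in Veh at 31.5% and 49.7%, and FosL2 in Veh at 32.5% and 20.8%. Their PU.1 core shares were 33.9%, 8.66% and 5.5% in the same order of PU.1 binding.

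In the PPARγ knockout, the share of hubs with an AP-1 peak differed widely by monomer. ATF3 had a knockout peak at 3508 hubs, 95.6% (94.9 to 96.3, background 70.1%), JunD at 2750, 75% (73.5 to 76.3, background 43.3%), and Jun at 1725, 47.0% (45.4 to 48.6, background 13.8%). All 3 were present at 1524 hubs (41.5%, background 10.6%), ATF3 and JunD without Jun at 1168 (31.8%), ATF3 alone at 626 (17.1%) and none at 99 (2.7%, background 22.9%). The shares of 31.8% and 17.1% were computed at hubs only, so they are not shown to be particular to hubs. The knockout Jun list was short, 4290 peaks with counts summing to 88033 against 15548 peaks and 466030 in the wild type. Its depth and any effect of the knockout on Jun cannot be told apart.

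Hubs without a knockout peak were weaker in the wild type. Median wild-type Jun ranks were 89.2 where the knockout had Jun and 71.3 where it did not, JunD ranks were 89.1 and 72.2, and ATF3 ranks 86.1 and 53.4. In deciles of mean resting rank the hub share with knockout Jun was 47.0% against 45.1% at the other loci with all 3 monomers, and in deciles of KLA rank 47.0% against 42.3%.

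The knockout shares also differed with PPARγ. At hubs with a wild-type PPARγ peak, knockout Jun was found at 51.5% (49.7 to 53.3) and at hubs without one at 23.7% (20.5 to 27.3). For JunD the shares were 79.8% and 50.0%, and for ATF3 97.0% and 88.6%. The split was not particular to hubs. At the other loci with all 3 monomers the shares were 24.9% and 13.7% for Jun. They were 63.0% and 42.2% for JunD, and 90.1% and 80.4% for ATF3. The hubs with PPARγ were stronger, with median wild-type Jun ranks of 83.9 and 65.6. Within the strongest decile of wild-type Jun peaks, knockout Jun was at 74.9% of 1051 hubs with PPARγ and 56.1% of 66 without. In the decile below, the shares were 54.9% and 34.7%. In both deciles the share was higher at hubs that held PPARγ in the wild type. For Jun the share was also higher with PPARγ in every weaker decile except decile 5, counted from the weakest (14.5% against 15.9%). Jun deciles 1 and 2 held only 6 and 18 hubs without PPARγ. The JunD share was higher with PPARγ in every decile except decile 1 (30.0% of 10 hubs against 50.0% of 14). The ATF3 share was lower with PPARγ in deciles 1 (40.0% of 5 hubs against 62.5% of 8), 3 (70.0% against 86.4%) and 4 (79.7% against 81.8%). In the other ATF3 deciles it was higher.

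**Figure D5:**
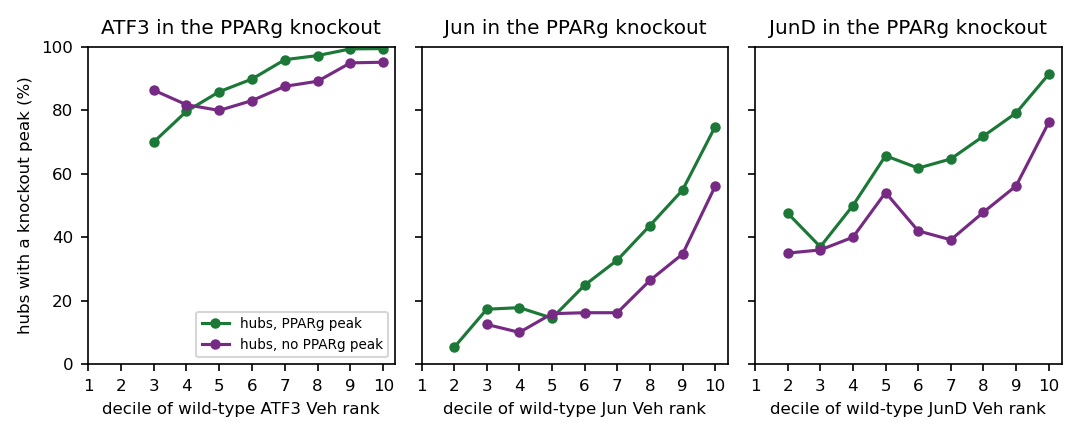
Share of hubs with a peak in the PPARγ knockout (y axis, percent) by decile of the wild-type rank of the same monomer (x axis), for hubs with and without a wild-type PPARγ peak. Only points with at least 20 hubs are drawn, and in the strongest decile knockout Jun was at 74.9% of hubs with PPARγ and 56.1% without.

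BALB/cJ cells bound most hubs. In Veh, JunD had a peak at 95.3% of hubs (background 64.9%), ATF3 at 89.1% (53.8%) and Jun at 79.1% (33.8%). In KLA the shares were 98.7% for Fos (72.1%), 98.5% for ATF3 (71.7%), 97.0% for JunD (63.5%), 94.5% for JunB (47.2%) and 73.1% for Jun (29.5%). Peaks in all 8 lists were found at 2119 hubs, 57.8% (56.2 to 59.4) against 14.5% of resting loci and 21.3% of the other loci with all 3 monomers. The 3 Veh lists all had a peak at 75.2% of hubs (background 27.8%) and the 5 KLA lists at 71.2% (background 24.0%). Another 929 hubs had 7 and 352 had 6. Among hubs with a TRE the share with all 8 was 63.2% (61.1 to 65.2) and among those without 50.9% (48.5 to 53.3).

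The excess at hubs stood out most in the KLA lists. In the same deciles of resting rank, JunB in KLA was at 94.5% of hubs and 78.5% of the other loci with all 3 monomers, and Jun in KLA at 73.1% and 57%, both higher in all 10 deciles. ATF3 in Veh was almost level, 89.1% and 88.4%. Resting rank does not match loci for strength after KLA, which the rule used.

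At 29 hubs there was no BALB/cJ peak at all, 0.791% (0.551 to 1.13) against 10.1% of resting loci. Their mean ranks in C57BL/6 ran from 31.5 to 92.0 with a median of 73.0, none was within 1 kb of a start, and 23 carried PPARγ and 19 PU.1 in Veh, where the shares over all hubs were 83.9% and 69.8%. The strongest was chr14:48422044-48422328 upstream of Tmem260 (92.0), followed by an intronic hub of Mid1 on chromosome X (89.6) and 1 in Rab7b (88.9), which encodes a lysosomal trafficking GTPase. Whether a sequence difference between the strains lies in these hubs was not tested.

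FosL2 was already at many hubs at rest, Fos and JunB at few. FosL2 in Veh overlapped 1826 hubs, 49.8% (48.2 to 51.4, background 16.2%), Fos 478, 13% (background 4.12%), and JunB 167, 4.55% (3.92 to 5.28, background 1.15%). At least 1 of the 3 was at 1947 hubs, 53.1% (background 18.7%). In the same deciles of resting rank FosL2 was at 49.8% of hubs and 36.6% of the other loci with all 3 monomers, higher in all 10 deciles. The rule required a FosL2 peak after KLA at every hub, while 17.0% of those other loci had one. This comparison is therefore not independent of the rule. JunB was near level, 4.55% and 4.27%. By western blot the study detected no JunB protein in nuclei of Veh cells. Whether the resting JunB peaks, here and below, mark JunB itself was not tested.

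The resting lists differed in where their strong peaks lay. Of the 463 JunB Veh peaks 36.1% were at hubs, and of its top decile 85.1%. In BALB/cJ, 5 of the 9 JunB Veh peaks were at hubs, at 0.136% of them (background 0.0271%). Of the 1804 Fos Veh peaks 26.5% were at hubs but of its top decile only 6.49%, and Fos peaks at hubs had a median rank of 51.7 in their list. Of the 5329 FosL2 Veh peaks 34.3% were at hubs.

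A peak in all 12 C57BL/6 AP-1 lists was found at 26 hubs, 0.709% (background 0.108%). Their median mean rank was 92.8, 25 of 26 carried PPARγ and 21 PU.1 in Veh (58.4% and 56.8% of resting loci, 98.2% and 79.2% of the 337 hubs in the top decile of all 9 lists), and 1 was within 1 kb of a start, that of Trib1 (chr15:59648458-59648681, mean rank 97.8). The Runx1 and Ergic1 hubs described above were among them.

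The 337 hubs in the top decile of all 9 lists, a set chosen by strength, differed from the other hubs in features the rule had not used. PPARγ was at 98.2% (96.2 to 99.2) of them and at 82.5% of the other 3331 hubs, CEBPα in Veh at 67.4% (62.2 to 72.1) and 49.2%, and PU.1 in Veh at 79.2% (74.6 to 83.2) and 68.8%. Knockout Jun was at 87.2% (83.3 to 90.4) and 43.0%, all 8 BALB/cJ lists at 90.5% (86.9 to 93.2) and 54.5%, and a TRE at 76.3% (71.4 to 80.5) and 53.9%. Of these 337, 12 (3.56%) were within 1 kb of a start. Strong loci that were no hubs had similar shares for several of these features. In the strongest decile of resting rank, other loci with all 3 monomers had PPARγ at 92.1% and CEBPα in Veh at 72.1%. There PU.1 in Veh was at 78.6%, knockout Jun at 84.7% and a TRE at 44.7%.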

How the data were processed

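ChIP-seq of 34 samples was deposited, 4 of them inputs, and 30 peak lists were analysed. Per the labels and the study's methods, the authors used Bowtie2 for alignment (C57BL/6 reads on mm10, BALB/cJ reads on a strain genome whose coordinates were then returned to mm10), called peaks of 200 bp with HOMER against the matching input, and removed peaks with an irreproducible discovery rate of 0.05 or more (idr 2.0.3). The deposited values are a read count per peak, not scaled to library size, and an IDR score with a highest value of 1000. Aligner versions and how replicate counts were combined are not given in the sources used here.

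Here lists were joined by overlaps of 1 bp, and the strongest peak of a list represented it at a locus. Counts were ranked within lists. A shallower list holds fewer peaks, so a missing peak is not absence of binding. Genes came from GENCODE M21 (GRCm38). Motif windows of 200 bp were centred on the resting locus. Shares have 95% Wilson intervals. With 1 list per condition no test was possible.

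Named items were the 12 hubs with the highest mean percentile, the 12 genes nearest to most hubs (ties alphabetical) and, per gene list, genes with a hub within 20 kb. Others named were chosen after their values were seen: the strongest promoter hubs, hub groups, hubs without BALB/cJ or lineage peaks, and hubs in all 12 C57BL/6 AP-1 lists. Members and lists were chosen with earlier results of these data known. Scripts used Python 3.11.15 with pandas 2.3.3, NumPy 2.4.6 and SciPy 1.17.1 and were tested on simulated data.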

Additional observations from a re-analysis of the deposited data

How the results depend on the processing

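Each share at hubs was recomputed under other rules, in the order PU.1 in Veh, CEBPα in Veh, PPARγ, knockout Jun, all 8 BALB/cJ lists, TRE and within 1 kb of a start. With the 10000 strongest peaks per list these were 72.3, 56.1, 89.0, 57.7, 69.2, 60.9 and 5.19%. With only peaks of the highest IDR score, which left 1938 hubs, they were 73.5, 55.6, 90.3, 61.1, 74.3, 63.4 and 4.85%. With only peaks above the middle of each list, 2264 hubs, they were 73.0, 56.1, 89.6, 59.1, 72.3, 62.8 and 5.04%. Requiring peak centres within 100 bp moved PU.1 to 60.7%, CEBPα to 48.0%, PPARγ to 82.0% and the TRE to 58.4%. Without the FosL2 KLA list, with 5388 loci, knockout Jun was 43.1%, all 8 BALB/cJ lists 52.5% and the TRE 49.8%. The TRE share in the central 100 bp was 46.5%, and 13.5% of hubs lay within 3 kb of a start. Knockout Jun by decile of wild-type Jun rank, weakest first, was 10.0, 3.57, 15.5, 14.6, 15, 23.0, 28.8, 40.9, 52.5 and 73.8%. The cause of these shifts was not tested. Of 75 alternative values 33 moved by less than their interval or fold limit. These are shares and counts at hubs alone, which have no direction. Set against loci of the same resting rank, the order of hubs and other loci with all 3 monomers turned for PU.1 in Veh (69.8 against 73.2%) and CEBPα in Veh (50.9 against 57.1%). Short lists, such as resting JunB with 463 peaks, limit what a missing peak shows. No paired analysis was possible because the labels give no replicate numbers and each condition has 1 list.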
